A study of Mus musculus with 8 samples.

Results

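The lambda light-chain locus was followed in samples labelled as pro-B cells of Setd2 knockout and control mice, through every light-chain segment whose name begins with IGL. There were 10 such segments among the 149 light-chain segments with a row in the read-count tables, and the other 139 belonged to the kappa locus. They were the V genes IGLV1 and IGLV3, the joining genes IGLJ1, IGLJ2 and IGLJ3, the constant genes IGLC1, IGLC2 and IGLC3, and the pseudogenes IGLJ3P and IGLC4. IGLV2 had no row in these tables, so its read count was not analysed here. The 4 Setd2 knockout and 4 control samples were untreated bone marrow cells from mice 8 weeks old. They had been sorted for B220 and Cd43 at the surface and for the absence of IgM and CD25. Setd2 encodes a methyltransferase that marks histone H3 at lysine 36. The labels used here name no allele, Cre driver or strain, and they give all 8 samples the same sequencing batch.

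A light chain is made by joining one V gene to one J segment, after which the transcript is spliced to the constant exon of the same cluster. In the mouse most light chains are kappa and a minority are lambda, and light-chain joining is a feature of the pre-B stage that follows the pro-B stage. Unrearranged light-chain loci can also be transcribed from promoters near the J segments, which gives RNA with J and constant sequence and no V.

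Light-chain locus reads numbered 62130, 51809, 5956 and 144978 in knockouts 1 to 4 and 98997, 118807, 84230 and 114613 in controls 1 to 4. Lambda segments held 3462, 2476, 1005 and 10711 of these reads in the knockouts and 3778, 5087, 3663 and 2731 in the controls. Knockout 3 had the fewest reads on both chains, so its shares rest on fewer counts. The sort label was checked against constant-gene reads of the heavy chain. IGHG, IGHA and IGHE, the class-switched constant genes, were taken as markers of cells past the pro-B stage. Together they made up 6.69% to 44.2% of heavy constant reads in knockouts and 51.0% to 57.6% in controls. IGHM, the constant gene of unswitched cells, made up 55.4% to 92.7% in knockouts and 41.4% to 48.0% in controls. IGHD, a marker of mature naive B cells, lay between 0.467% and 0.759% in knockouts and between 0.651% and 0.977% in controls. Whether the IGHG, IGHA and IGHE reads came from switched transcripts was not tested. Reads from switched transcripts would go against a population of pro-B cells alone. The switched sum and IGHM were separated by group, IGHA within that sum and IGHD overlapped, and the part of these genes in the lambda results was not tested. In bulk RNA, fewer cells of a type and less RNA per cell cannot be told apart.

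The lambda segments lie on the minus strand of chromosome 16 in mm10. In the order of transcription IGLV2 and IGLV3 come first (IGLV3 at chr16:19241208-19241679), followed by IGLJ2 (chr16:19200198-19200235), IGLC2 (chr16:19198536-19198852) and the pseudogene IGLC4 (chr16:19194999-19195312). IGLV1 (chr16:19085017-19085460) follows, and then IGLJ3 (chr16:19067041-19067078), the pseudogene IGLJ3P (chr16:19066371-19066408), IGLC3 (chr16:19065365-19065681), IGLJ1 (chr16:19063225-19063262) and IGLC1 (chr16:19061752-19062071). The 2 V genes with reads span their exons and an intron, and each J and C segment is a single exon in the annotation. The J segments and constant exons are close relatives, so the sequences show how far a 75-base read can tell them apart.

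The J segments are 38 bases long and were taken from the GENCODE M21 transcripts. Capitals in IGLJ1 and IGLJ2 mark bases that differ from IGLJ3.
IGLJ1: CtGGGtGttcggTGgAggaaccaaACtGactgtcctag
IGLJ2: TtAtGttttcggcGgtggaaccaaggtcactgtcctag
IGLJ3: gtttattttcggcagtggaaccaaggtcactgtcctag
IGLJ2 and IGLJ3 differed at 4 of 38 bases and IGLJ1 and IGLJ3 at 11.

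For the constant exons 75 bases are shown for the same reason, from the second base of the exon on. Capitals in IGLC1 and IGLC2 mark bases that differ from IGLC3, and capitals in IGLC3 mark bases that differ from IGLC2.
IGLC1: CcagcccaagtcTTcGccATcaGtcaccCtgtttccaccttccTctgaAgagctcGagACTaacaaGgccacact
IGLC2: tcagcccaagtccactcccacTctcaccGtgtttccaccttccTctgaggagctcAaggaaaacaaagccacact
IGLC3: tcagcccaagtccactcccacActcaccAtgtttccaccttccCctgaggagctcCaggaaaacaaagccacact
Over their whole exons IGLC2 and IGLC3 differed at 11 of 317 bases, and 5 of the 243 windows of 75 bases in each were the same in both. IGLC1 shared 0 windows with either of them. An error-free read from those few windows cannot be placed between IGLC2 and IGLC3, and how such reads were counted is not stated in the sources used here. IGLV1 and IGLV2 differed at 12 of 366 aligned bases and shared 30 windows, and how reads of IGLV2 were counted is unknown, so the IGLV1 count may hold any part of them. The transcript of Igll1, the surrogate light-chain gene of pro-B cells that resembles lambda constant sequence, shared 0 windows with IGLC1, IGLC2 or IGLC3.

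IGLC3, IGLJ3 and IGLJ1 were higher in all 4 knockouts than in any control relative to light-chain reads. IGLV1, IGLV3, IGLC1, IGLC2 and IGLJ2 overlapped between the groups. With light-chain reads as library size edgeR called 0 of 125 segments, lambda or kappa, at the adjusted threshold. DESeq2 called 14 of 125 (11.2%), and IGLC3, IGLJ3 and IGLJ1 were among them. Heavy-chain reads were also used as library size in edgeR, a choice made after the values were seen. That fit called 11 of 125 (8.8%), and IGLJ1 was the only lambda segment among them. Relative to light-chain reads, the excess of IGLC3, IGLJ3 and IGLJ1 was several times larger in knockout 3 than in the other knockouts. It was present without that sample. Relative to IGHM reads, knockout 3 lay much closer to the other knockouts.

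IGLV1, the V gene that joins to IGLJ1 and IGLJ3, had 1707, 1118, 49 and 6876 reads in knockouts 1 to 4, against 1941, 2982, 1151 and 1280 reads in controls 1 to 4. As a share of light V reads this was 6.21%, 4.78%, 2.35% and 9.11% in knockouts and 4.36%, 5.20%, 2.89% and 2.26% in controls. Knockout 4 had the highest share and knockout 3 nearly the lowest, and the groups overlapped. The 95% Wilson interval for knockout 3 was 1.78% to 3.09%, which covers counting error only. The mean share was 5.61% ± 2.83 in knockouts and 3.68% ± 1.34 in controls (SD, n = 4 each). Among 113 light V genes the log2 fold change of IGLV1 was 0.61 ± 0.56 (SE; edgeR quasi-likelihood test, adjusted p = 0.528). It was 1.84 with DESeq2 (adjusted p = 0.117), 1.95 with TMM scaling in edgeR (adjusted p = 0.174) and 0.28 without knockout 4.

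IGLV3, which sits upstream of the IGLJ2 and IGLC2 cluster, had far fewer reads. It took 0.513%, 0.470%, 1.63% and 0.284% of light V reads in knockouts and 0.555%, 0.339%, 1.87% and 0.251% in controls. Knockout 3 and control 3 were the high samples of their groups, and the groups overlapped over their full range. Its log2 fold change was -0.09 ± 0.86 (SE; edgeR adjusted p = 0.959), and the sign changed under other scalings. Both V genes together took 6.72%, 5.25%, 3.98% and 9.40% of light V reads in knockouts and 4.92%, 5.54%, 4.76% and 2.51% in controls. In the V-gene fit 0 of 113 genes passed the adjusted threshold, so percent called was 0. At an unadjusted p under 0.05, 3 genes (2.65%) were higher in knockouts and 18 (15.9%) lower, and neither lambda V gene was among them. DESeq2 called 9 of 113 genes (7.96%), 6 of them higher in knockouts (5.31%), and 0 of the 9 were lambda.

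The 3 functional constant genes behaved differently from one another. IGLC3, the constant exon joined to IGLJ3, had 962, 691, 690 and 1581 reads in knockouts 1 to 4, against 707, 726, 680 and 678 reads in controls 1 to 4. Its share of light constant reads was 2.94%, 2.56%, 18.8% and 2.39% in knockouts and 1.37%, 1.24%, 1.61% and 1.23% in controls. Every knockout lay above every control, and the controls were tightly grouped. Mean shares were 6.66% ± 8.07 in knockouts and 1.36% ± 0.174 in controls (SD, n = 4 each), and the exact two-sided permutation test gave an unadjusted p of 0.0286, the smallest p that 4 against 4 samples allow. Without knockout 3 the knockout mean was 2.63%. The Wilson interval for knockout 3 was 17.5% to 20.1%, so its counting error was small beside its distance from the other knockouts.

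IGLC1, joined to IGLJ1, took 0.978%, 0.864%, 0.843% and 2.13% of light constant reads in knockouts and 0.727%, 0.975%, 0.536% and 0.376% in controls. Control 2 reached into the knockout range, and knockout 4 was the high sample. The means were 1.20% ± 0.620 in knockouts and 0.654% ± 0.258 in controls (SD, n = 4 each; exact two-sided permutation p = 0.0857, unadjusted). The difference of 0.55 percentage points was 0.24 without knockout 4. IGLC2, joined to IGLJ2, took 0.803%, 1.01%, 3.97% and 0.787% in knockouts and 0.897%, 0.973%, 1.94% and 0.711% in controls, with an exact two-sided permutation p of 0.714. Its mean was 1.64% ± 1.55 in knockouts and 1.13% ± 0.553 in controls (SD, n = 4 each). Knockout 3 decided the direction for IGLC2, since without it the knockout mean was 0.867%. The pseudogene IGLC4 had 2 reads in knockout 2 and 0 in the other samples. Summed over the constant genes, the lambda share of light constant reads was 4.72%, 4.44%, 23.6% and 5.30% in knockouts and 2.99%, 3.19%, 4.09% and 2.32% in controls.

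The lambda J segments had few reads, and each is 38 bases long. The kappa segment IGKJ1 averaged 765 reads per sample, so few reads are not a trait of every J segment. IGLJ1 had 10 reads summed over controls, whereas control contigs joining IGLV1 to IGLJ1 held 132 reads. How reads across a join were counted is not stated in the sources used here, so the J counts may leave some out. IGLJ3 had 50, 31, 32 and 66 reads in knockouts and 32, 19, 20 and 21 in controls. Per 10000 light-chain locus reads this was 8.05, 5.98, 53.7 and 4.55 in knockouts and 3.23, 1.599, 2.37 and 1.83 in controls, and every knockout exceeded every control. IGLJ1 had 12, 13, 16 and 24 reads in knockouts and 3, 4, 1 and 2 in controls. Per 10000 light-chain locus reads IGLJ1 was at 1.93, 2.51, 26.9 and 1.66 in knockouts and at 0.303, 0.337, 0.119 and 0.175 in controls. The raw counts of IGLJ1 were also separated, including in knockouts 1 to 3, which had fewer light-chain locus reads than any control. IGLJ2 had 7, 4, 5 and 18 reads in knockouts and 10, 21, 17 and 9 in controls, and on the scaled values the groups overlapped. The pseudogene segment IGLJ3P had at most 2 reads in any sample.

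**Figure D1:**
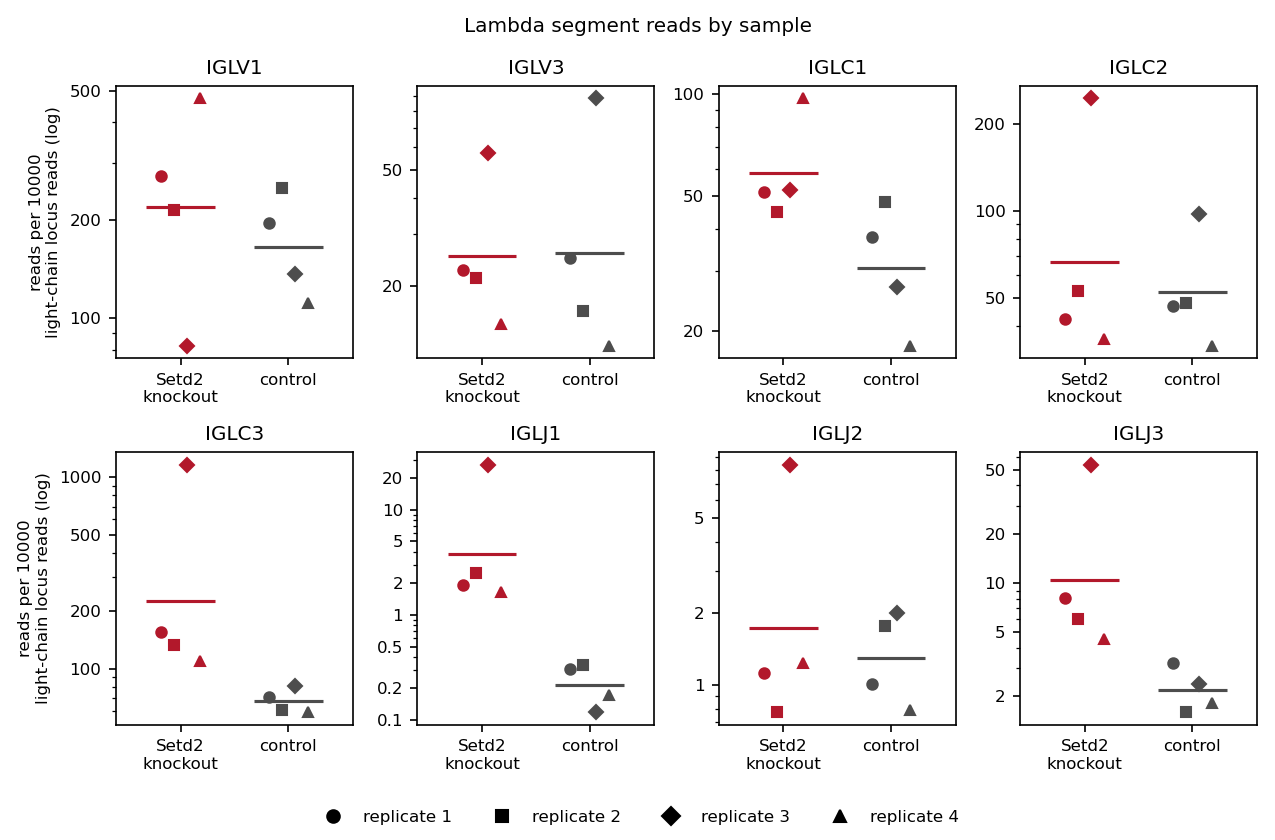
Reads per 10000 light-chain locus reads for the 8 functional lambda segments, on logarithmic axes that differ between panels, with Setd2 knockouts in red on the left and controls in grey on the right. Each symbol is a sample and each bar a geometric mean; in the IGLC3, IGLJ1 and IGLJ3 panels every knockout sits above every control, and knockout 3 is the highest.

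These 3 segments were the ones that separated the groups upward among all light-chain segments. Of 125 segments with at least 10 reads over the samples, 3 (2.4%) were higher in every knockout than in every control by share of light-chain locus reads, and all 3 were lambda (IGLC3, IGLJ1 and IGLJ3). In the other direction 24 of 125 segments (19.2%) were lower in every knockout, and 0 of them were lambda. Of the 10 lambda segments, 8 passed the minimum of 10 reads, and IGLC4 and IGLJ3P did not.

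In the fit across all 125 segments, edgeR's quasi-likelihood test called 0 at an adjusted p under 0.05, so percent called was 0. The log2 fold change was 4.87 ± 1.19 for IGLJ1 (SE; edgeR adjusted p = 0.0728), the third lowest p of the table. It was 2.51 ± 0.76 for IGLC3 (edgeR adjusted p = 0.0869) and 2.92 ± 0.96 for IGLJ3 (edgeR adjusted p = 0.110). The remaining lambda values were 0.91 for IGLC1, 0.72 for IGLC2, 0.67 for IGLJ2, 0.59 for IGLV1 and -0.32 for IGLV3, with edgeR adjusted p between 0.361 and 0.838. IGLC1 was at 1.70 with DESeq2 (adjusted p = 0.0735) and 1.62 with TMM scaling (edgeR adjusted p = 0.166), and at 0.60 without knockout 4. IGLV1 was at 1.45 with DESeq2 (adjusted p = 0.216), 1.37 with TMM scaling (edgeR adjusted p = 0.231) and 0.14 without knockout 4. The median over the 8 lambda segments was 0.81, against -0.54 over all 125 segments. At an unadjusted p under 0.05, 6 segments (4.8%) were higher in knockouts and 20 (16%) lower; IGLC3, IGLJ1 and IGLJ3 were among the 6 and no lambda segment was among the 20. DESeq2 called 14 segments (11.2%), of which 8 were higher in knockouts, and IGLC3, IGLJ1 and IGLJ3 were among those 8. With heavy-chain locus reads as library size, a choice made after the values were seen, edgeR called 11 segments (8.8%), and IGLJ1 was the 1 that was higher in knockouts (0.8%; log2 fold change 3.95, adjusted p = 0.0357). Without knockout 3 the edgeR log2 fold changes were 0.96 for IGLC3, 3.03 for IGLJ1 and 1.45 for IGLJ3.

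**Figure D2:**
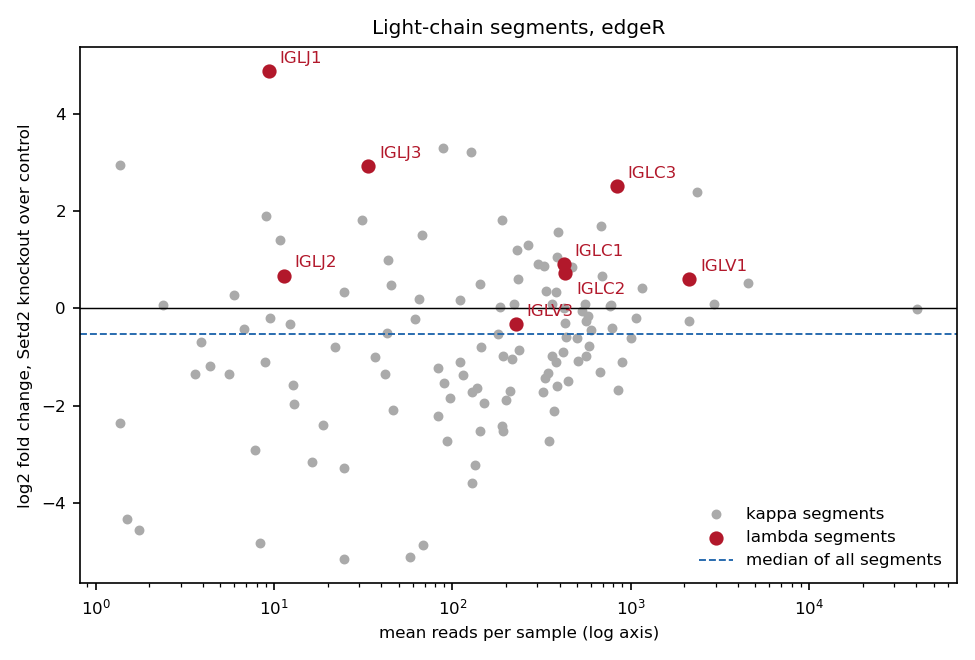
Log2 fold change of Setd2 knockout over control by edgeR against the mean reads per sample on a logarithmic axis, for 125 light-chain segments, with lambda segments in red and kappa segments in grey. IGLJ1, IGLJ3 and IGLC3 stand at 4.87, 2.92 and 2.51, and the dashed line marks the median of all segments at -0.54.

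The kappa counterparts of these segments are given on the same scale. IGKC, the single kappa constant gene, and IGKJ1 to IGKJ5 had log2 fold changes between -0.45 and 0.33 with a median of 0.03. Of these 6 segments, 0 passed edgeR's adjusted threshold and 0 had an unadjusted p under 0.05. IGKC averaged 4760 ± 319 per 10000 light-chain locus reads in knockouts and 4832 ± 160 in controls (SD, n = 4 each). Because IGKC is so large a part of the total used as library size, this scaling itself holds its fold change near 0. Against IGHM reads IGKC averaged 1742 per 1000 in knockouts and 3199 in controls. IGKJ2 was the one kappa J segment whose groups did not overlap, at 36.2, 60.0, 62.1 and 69.1 per 10000 in knockouts and 83.2, 85.9, 70.3 and 70.6 in controls. IGKJ2 was lower in knockouts, the direction opposite to IGLJ1 and IGLJ3, but 24 of 125 segments (19.2%) were lower in every knockout. Its log2 fold change was -0.45 (edgeR adjusted p = 0.596).

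Because a share of light-chain reads depends on how much kappa RNA a sample holds, the same segments were also set against IGHM reads, a choice made after the values were seen. IGKC had 1639, 2399, 297 and 2631 reads per 1000 IGHM reads in knockouts and 2149, 3841, 2983 and 3821 in controls, and knockout 3 was far below the other 7 samples. On this scale IGLJ3 was at 2.63, 2.88, 3.39 and 2.77 in knockouts and at 1.37, 1.29, 1.47 and 1.49 in controls. IGLC3 was at 50.6, 64.3, 73.0 and 66.4 in knockouts and at 30.4, 49.3, 50.0 and 48.2 in controls. IGLJ1 was at 0.631, 1.21, 1.69 and 1.01 in knockouts and at 0.129, 0.271, 0.0735 and 0.142 in controls. All 3 remained separated by group, for IGLC3 only narrowly, at 50.6 in knockout 1 and 50.0 in control 3. Knockout 3 no longer stood far from the other knockouts. IGLC3, IGLJ3 and IGLJ1 were the only ones of the 125 segments that were higher in every knockout on this scale. The scale is not neutral, since IGHM made up 55.4% to 92.7% of heavy constant reads in knockouts and 41.4% to 48.0% in controls. The mean of IGLJ3 was 2.92 ± 0.330 in knockouts and 1.41 ± 0.0937 in controls (SD, n = 4 each). IGLV1 behaved otherwise on this scale, at 89.7, 104, 5.19 and 289 in knockouts and 83.3, 202, 84.6 and 91.0 in controls, with knockout 3 the lowest sample of all 8.

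The clusters were next compared within the lambda locus, where neither kappa nor heavy-chain reads enter. These ratios were also chosen after the values were seen and are given as a description with no test. IGLC3 had 3.66, 2.53, 4.73 and 3.03 reads for each IGLC2 read in knockouts and 1.53, 1.28, 0.826 and 1.73 in controls. The exons have the same length, so this ratio compares equal spans. With 1 read added to each count, as in the other folds of this kind, the ratio of geometric means was 2.62, and leaving out single samples kept the log2 difference between 1.17 and 1.53. IGLJ3 had 7.14, 7.75, 6.40 and 3.67 reads for each IGLJ2 read in knockouts and 3.20, 0.905, 1.18 and 2.33 in controls, a 3.26-fold difference of geometric means with 1 read added to each count. IGLJ1 had 1.71, 3.25, 3.20 and 1.33 reads for each IGLJ2 read in knockouts and 0.3, 0.190, 0.0588 and 0.222 in controls, an 8.86-fold difference with 1 read added to each count. With 10 reads added the log2 difference of this last ratio was 1.47, against 3.15 with 1. In all 3 ratios the knockouts lay above every control. IGLC1 had 1.22, 0.853, 0.212 and 2.70 reads for each IGLC2 read in knockouts and 0.810, 1.002, 0.276 and 0.529 in controls, and these groups overlapped.

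**Figure D3:**
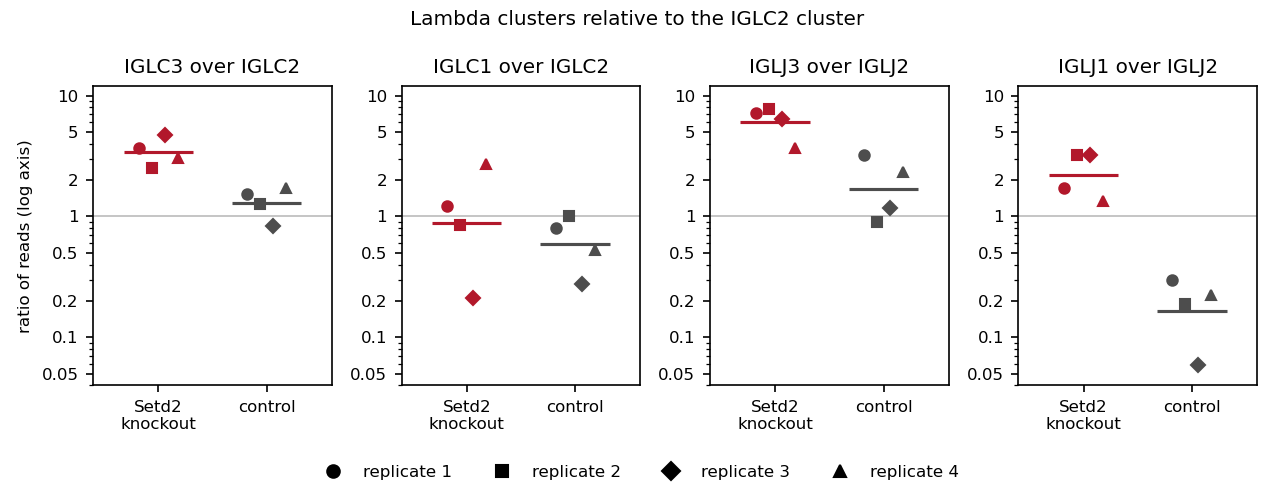
Ratio of reads of IGLC3, IGLC1, IGLJ3 and IGLJ1 to IGLC2 or IGLJ2, on logarithmic axes with the same limits, with Setd2 knockouts in red on the left and controls in grey on the right; each symbol is a sample and each bar a geometric mean. The knockouts lie above the controls for IGLC3, IGLJ3 and IGLJ1, and the groups overlap for IGLC1.

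The make-up of lambda reads followed from these ratios. IGLC2 held 17.0%, 22.8%, 16.8% and 14.8% of lambda constant reads in knockouts and 29.97%, 30.5%, 47.6% and 30.6% in controls, so every knockout was lower. IGLC3 held 62.3%, 57.6%, 79.6% and 45.03% in knockouts and 45.8%, 38.9%, 39.3% and 53.1% in controls, with knockout 4 below controls 1 and 4. IGLC1 held 20.7%, 19.4%, 3.58% and 40.1% in knockouts and 24.3%, 30.6%, 13.1% and 16.2% in controls (exact two-sided permutation p = 1, n = 4 each). IGLV1 held 92.4%, 91.0%, 59.0% and 97.0% of lambda V reads in knockouts and 88.7%, 93.9%, 60.7% and 90.0% in controls (exact two-sided permutation p = 0.714, n = 4 each). The lowest sample of each group was replicate 3.

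Constant reads were then set against V reads of the same cluster, per base of each gene's span. Constant RNA that carries no V would raise this ratio, but read coverage and counting also enter it, so it does not measure such RNA alone. The spans of V genes include the intron after the leader exon, for lambda and kappa alike. The ratio of IGLC1 to IGLV1 was 0.260, 0.289, 0.878 and 0.284 in knockouts and 0.268, 0.265, 0.274 and 0.224 in controls. Apart from knockout 3, IGLC1 and IGLV1 thus kept a nearly fixed proportion over samples whose IGLV1 counts ranged from 1118 to 6876. The ratio of IGLC3 to IGLV1 was 0.789, 0.866, 19.7 and 0.322 in knockouts and 0.510, 0.341, 0.827 and 0.742 in controls. It varied within both groups, and knockout 3 had 690 IGLC3 reads beside 49 IGLV1 reads. For IGLC1 and IGLC3 together over IGLV1 the values were 1.05, 1.15, 20.6 and 0.606 in knockouts and 0.778, 0.606, 1.10 and 0.966 in controls. The log2 difference was 1.22 with an exact two-sided permutation p of 0.371 (n = 4 each), and it was 0.10 without knockout 3.

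For the upstream cluster, IGLC2 over IGLV3 was 2.78, 3.70, 6.39 and 3.62 per base in knockouts and 2.79, 4.37, 1.65 and 4.10 in controls (exact two-sided permutation p = 0.486, n = 4 each). The reads of IGLV2, which joins to the same cluster, are missing below the line, and by how much this raises the ratio in each sample is unknown. IGKC over all kappa V genes was 2.04, 1.93, 2.35 and 1.64 per base in knockouts and 2.06, 1.78, 1.82 and 1.69 in controls. The kappa ratio of knockout 3 was the highest of the 8 but close to the others.

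**Figure D4:**
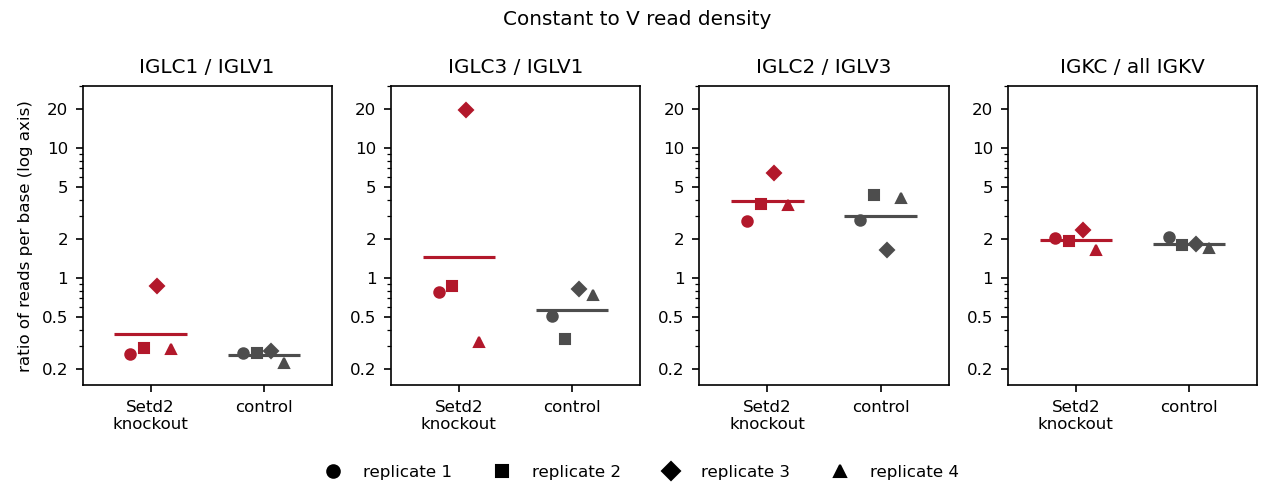
Reads per base of constant gene over reads per base of V gene, on logarithmic axes with the same limits, for IGLC1 and IGLC3 over IGLV1, IGLC2 over IGLV3, and IGKC over all kappa V genes, with Setd2 knockouts in red on the left and controls in grey on the right. Each symbol is a sample and each bar a geometric mean; knockout 3 reaches 0.878 for IGLC1 and 19.7 for IGLC3, and its kappa ratio of 2.35 lies near the other samples.

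The assembled contigs show which segments were joined. Lambda contigs numbered 11, 12, 2 and 10 of 183, 212, 106 and 325 light-chain contigs in knockouts and 18, 29, 31 and 30 of 656, 929, 647 and 896 in controls. A V and a J could be assigned in 25 of 35 knockout contigs and 96 of 108 control contigs. IGLV1 was joined to IGLJ1 in 17 knockout and 52 control contigs and to IGLJ3 in 5 knockout and 20 control contigs. IGLV3 was joined to IGLJ2 in 2 knockout and 16 control contigs, of which control 3 held 11. IGLV2 was joined to IGLJ2 in 1 knockout and 7 control contigs and to IGLJ3 in 1 control contig. IGLV1 was joined to IGLJ2 in 0 contigs. Where a contig reached a constant exon, IGLJ1 was followed by IGLC1 in 17 contigs, IGLJ2 by IGLC2 in 6 and by IGLC3 in 1, and IGLJ3 by IGLC3 in 2. Assembled contigs are not independent cells, and knockout 3 had only 2.

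A contig of each common join is shown to set the rearranged form beside the other form described next, with the longest exact match to the J segment in capitals. Bases at the border can match both V and J. These contigs held 6, 7, 9 and 10 reads in the order shown.
Knockout 1, IGLV2 to IGLJ2: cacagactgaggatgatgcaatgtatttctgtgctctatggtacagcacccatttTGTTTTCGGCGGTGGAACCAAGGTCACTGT
Control 1, IGLV1 to IGLJ1: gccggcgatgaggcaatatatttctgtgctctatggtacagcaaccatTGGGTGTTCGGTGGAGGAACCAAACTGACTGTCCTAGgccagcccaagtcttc
Control 2, IGLV1 to IGLJ3: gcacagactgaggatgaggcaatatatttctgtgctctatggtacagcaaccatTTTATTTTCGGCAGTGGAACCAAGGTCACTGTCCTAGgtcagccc
Control 3, IGLV3 to IGLJ2: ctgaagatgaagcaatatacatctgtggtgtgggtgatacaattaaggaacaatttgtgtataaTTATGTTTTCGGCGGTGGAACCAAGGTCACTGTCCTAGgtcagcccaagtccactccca

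Joining removes the recombination heptamer that borders an unjoined J segment, so a heptamer directly before a J shows a J end that is not part of a V-to-J join. The motif CANNGTG, followed at once by the first 10 bases of a J, was sought on the strand where V and J aligned best. It was found in 1 lambda contig in each of the 4 knockouts and in 1 lambda contig of control 2. That is 4 of 35 knockout contigs (11.4%) and 1 of 108 control contigs (0.926%). In kappa contigs a like search, on both strands and against 4 kappa J segments, found 1 of 791 in knockouts and 0 of 3019 in controls. The lambda contigs held 1 read each in knockouts and 2 reads in control 2, too few to compare the groups. They are shown with the heptamer in capitals.
Knockout 1, IGLJ3: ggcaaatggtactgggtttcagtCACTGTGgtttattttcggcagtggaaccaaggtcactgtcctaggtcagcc
Knockout 2, IGLJ3: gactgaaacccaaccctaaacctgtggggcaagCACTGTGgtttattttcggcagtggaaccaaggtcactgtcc
Knockout 3, IGLJ3: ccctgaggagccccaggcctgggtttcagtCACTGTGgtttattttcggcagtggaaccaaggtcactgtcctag
Knockout 4, IGLJ1: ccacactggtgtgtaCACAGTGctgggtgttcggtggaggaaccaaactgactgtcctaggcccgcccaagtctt
Control 2, IGLJ3: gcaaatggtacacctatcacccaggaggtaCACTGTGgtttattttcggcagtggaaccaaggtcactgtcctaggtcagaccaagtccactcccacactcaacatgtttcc
The J in these contigs was IGLJ3 in 4 and IGLJ1 in 1, and IGLJ2 in 0. A further contig of knockout 2 began with TTGTG directly before IGLJ2, which is the length of the last 5 bases of a heptamer and matches NNGTG, and it was not counted. The bases before the heptamer were the same over 12 bases in knockouts 1 and 3 and differed at the base next to the heptamer in the other IGLJ3 contigs. In 4 of the 5 contigs the first 11 to 25 bases matched a lambda constant exon. The genome holds 1 sequence before IGLJ3, so the 4 IGLJ3 contigs cannot all be single genomic stretches. In knockout 4 the match to IGLC1 took in all 15 bases before the heptamer, and IGLC1 lies after IGLJ1 in the locus. In control 2 the match took in 25 of the 30 bases before the heptamer, and it was to IGLC2, in the cluster of IGLJ2. Up to the J, the contigs of knockout 4 and control 2 are therefore not single genomic stretches. For the contigs of knockouts 1, 2 and 3 this was not tested. The contigs of knockout 1, knockout 4 and control 2 ran past the J into constant sequence.

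Segments whose levels ran most like those of IGLV1 and IGLC1 over the 8 samples were sought among 108 light-chain segments with a mean of at least 10 reads, by Pearson's r of log2(reads per 10000 light-chain locus reads + 1). For IGLV1 they were IGKV1-110 (r = 0.75), IGKV4-70 (r = 0.75) and IGKV4-73 (r = 0.74). Without knockout 3 these became 0.59, 0.59 and 0.54. For IGLC1 they were IGKJ4 (r = 0.84), IGKV4-65 (r = 0.79) and IGKV4-54 (r = 0.70), and 0.87, 0.81 and 0.69 without knockout 3. IGLC3 was added after its values were seen, and IGLJ3 was the segment most like it (r = 0.99, and 0.97 without knockout 3). The next for IGLC3 was IGLJ2, whose r of 0.84 became -0.24 without knockout 3. All these values share the same libraries and the same total, and they are descriptions only.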

How the data were processed

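Poly-A RNA was sequenced with 75-base single-end reads, per the labels' protocols. The submitters' processing notes name STAR 2.5.1 and the build mm10. The series design names the TRUST repertoire algorithm, with no version in the sources used here. The tables deposited by the authors give a whole-number read count per gene segment and per assembled contig, with no normalization. The depth of the whole library is unknown, and the light-chain locus held 5956 to 144978 reads in a sample. The level of Setd2 RNA was not analysed here.

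Counts were fitted with edgeR 4.0.16 (quasi-likelihood test, R 4.3.3). This test reports no SE, so the SE given with edgeR values was derived. It is the absolute log2 fold change divided by the square root of the F statistic. Library size was the sum of light V counts or of all light-chain counts, unscaled. Segments needed 10 reads over the samples, and a call needed a Benjamini-Hochberg adjusted p under 0.05. In simulated data on these segments, 60.6% of 4-fold and 97.7% of 16-fold changes were called. The simulation gave every segment the same fixed dispersion, which was not estimated from these samples. Its rates therefore check the code and do not give the power of the fit on the real counts. Shares and log2 ratios with 1 read added were compared between group means by exact permutation, two-sided, over 70 arrangements. DESeq2 1.42.0, TMM, no filter, other library sizes, other denominators, pseudocount 10, each sample left out and the replicate number as a block were alternatives. A V or J was assigned to a contig by local alignment in Biopython 1.88 to GENCODE M21 transcripts, with scores of at least 16 and 14 and a lead of 2 over the next. Ratios per base divide reads by the length of the gene's span. Other steps used Python 3.11.15, numpy 2.4.6, pandas 2.3.3, scipy 1.17.1 and matplotlib 3.10.9.

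The members and lists were chosen with earlier results of these data known. Every lambda segment was named, with IGKC and the IGKJ genes as counterparts. Replicates carry numbers but no animal in the labels, and p-values therefore describe the spread among these samples, part of which may be technical.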

Additional observations from a re-analysis of the deposited data

Results flagged for a closer look

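In 17 of the 54 groups of 4 samples examined, 1 sample stood apart from the other 3 by Dixon's criterion at 95%. Chance gives about 1 in 20 such groups, and the readouts share counts.

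Knockout 3, the sample with 5956 light-chain locus reads, was the one in 11 of the 17. It was the highest knockout for the shares of light V reads of IGLV3 (1.63%) and of light constant reads of IGLC2 (3.97%) and IGLC3 (18.8%). It was also the highest for IGLJ1 (26.9), IGLJ2 (8.39) and IGLJ3 (53.7) per 10000 light-chain locus reads. Its constant reads were high beside its V reads, per base, at 0.878 for IGLC1 over IGLV1, 19.7 for IGLC3 over IGLV1, 20.6 for both over IGLV1 and 15.0 for all lambda constant over all lambda V genes. It was the lowest knockout for the share of IGLV1 among lambda V reads, at 59.0%.

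Knockout 4 had the highest share of IGLC1 in its group, at 2.13% of light constant reads. Control 3 had the lowest control share of IGLV1 among lambda V reads (60.7%) and the highest control share of IGLC2 among lambda constant reads (47.6%). Control 2 was the highest control per 1000 IGHM reads for IGLC1 (38.7) and IGLV1 (202.4). Control 1 was the lowest control for IGLC3 per 1000 IGHM reads, at 30.4.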

How the results depend on the processing

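IGLC3, IGLJ1 and IGLJ3 kept a positive log2 fold change in every alternative run. DESeq2 called 9 light V genes (6 higher, 3 lower) and 14 light-chain segments (8 higher, 6 lower). With heavy-chain locus reads as library size, an addition made after seeing the data, 11 segments were called, 1 higher (IGLJ1) and 10 lower, and the log2 fold change of IGLC2 was -0.040. The median over all 125 segments moved from -0.54 to 0.11 with DESeq2, 0.04 with TMM and -0.85 with heavy-chain reads. IGLV3 was positive among V genes with DESeq2 (0.56), TMM (0.52) and the replicate block (0.085), and among all segments with DESeq2 (0.27) and TMM (0.19). With the replicate block, a paired comparison, the IGLC3 share differed by 5.30 percentage points with an exact p of 0.125, the smallest that 4 pairs allow. Same-numbered samples correlated between -0.07 and 0.16 in their deviations from group means, so the numbers were not taken as pairs. With pseudocount 10 the log2 difference of IGLJ1 over IGLJ2 was 1.47.

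Leaving out single samples gave differences in percentage points from 1.27 to 6.73 for the IGLC3 share, -0.26 to 0.80 for the IGLC2 share, -6.01 to 10.1 for IGLV1 among lambda V reads and -6.47 to 5.71 for IGLC1 among lambda constant reads. The log2 fold change ranged from -0.84 to 0.89 for IGLV3 among V genes, and among all segments from -0.86 to 0.67 for IGLV3, -0.38 to 1.12 for IGLC2 and -0.39 to 0.99 for IGLJ2. With 4 against 3 samples the exact test cannot go below 0.0571. The cause of these changes was not tested. The J segments are limited by depth, with 1 to 66 reads per sample for the functional ones.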
